A study of Rattus norvegicus with 28 samples.

Results

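Expression of 10 genes of iron, heme and hemoglobin metabolism, chosen by gene name, was examined in the injured rat spinal cord: Hbb, Alas2, Hmox1, Fth1, Ftl1, Tf, Tfrc, Cp, Slc40a1 and Hamp. On the array, 9 of the 10 had a probe under that name, among 35469 features in all, and Ftl1 had none. Gene expression was measured in adult female Sprague Dawley rats on 28 single-colour arrays, 4 for each of 7 groups. T0 animals had no contusion (the sample labels call them sham, the study's text uninjured). T1, T2, T4 and T8 animals received a contusion of 250 kdyn at thoracic level and were taken 1, 2, 4 and 8 weeks later. T1_NPC animals received neural progenitor cells (NPCs) in the cord right after the same contusion and were taken at 1 week. T2_NPC animals received them 1 week after contusion, in the subacute phase, and were taken at 2 weeks. Per the methods, injured controls were given medium without cells. The NPCs were grown as neurospheres from the injured spinal cords of other adult rats. The tissue was 1.5 cm of cord around the epicentre, without dura mater, from animals perfused with saline. The immunosuppressant FK-506 (1 mg/kg) is listed in a protocol given for all samples but timed from transplantation. Nothing in the labels ties animals to litters or surgery days, so p-values measure the spread between these samples.

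Iron reaches cells bound to transferrin (Tf) through the transferrin receptor (Tfrc), is stored in ferritin (heavy chain Fth1, light chain Ftl1) and leaves cells through ferroportin (Slc40a1), helped by the ferroxidase ceruloplasmin (Cp). Hepcidin (Hamp) is the peptide hormone that removes ferroportin from the cell surface. Heme, the iron-carrying ring of hemoglobin, is made in red cell precursors from a first step catalysed by Alas2 and is opened by heme oxygenase 1 (Hmox1), which releases its iron. After a contusion, blood enters the cord, and macrophages and microglia take up red cells, heme and myelin debris.

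Hbb was chosen by its measured rise after subacute transplantation, which is the comparison of T2_NPC with T2. Its values in these groups are therefore a description with no test, and Hbb enters no count of a comparison that uses T2. For the other genes, T2_NPC is likewise described beside T2 with no test. In all other comparisons, a gene was called when the Benjamini-Hochberg adjusted p of limma's test over all 35469 features was under 0.05. Values are log2 values, normalised between arrays by the study's authors, so a difference of 1 is a 2-fold change. Levels are not compared between probes, except that Hbb is set against an alpha globin probe on the same array as a description.

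The 9 genes were measured by 16 probes of 60 bases in 34 spots. Which transcripts a probe can see matters for 2 of them, and their sequences are shown for that reason. The Hbb probe lies at chr1:161620134-161620193 (minus strand, rn4) and covers the 5′ end of the transcript. Its last 13 bases, ATGGTGCACCTGA, start the coding region. The rat carries several beta-like globin genes side by side on chromosome 1. Of the 60 bases of the probe, the first 50 matched the RefSeq start of Hbb without a mismatch, whereas Hbb-b1, Hbb-b2 and Hbbl1 had 6 mismatches over the 45, 45 and 47 bases that could be compared, and Hbb-bs had 6 over 44 (RefSeq windows of build GRCr8). The first 30 bases of each are given here, 5′ to 3′, with mismatches to the probe in capitals.
Hbb: tgcttctgacatagttgtgttgactcacaa
Hbb-b1: tgcttctgaTaCTgttgtgttgactcGcaa
Hbb-b2: tgcttctgaTaCTgttgtgttgactcGcaa
Hbb-bs: tgcttctgaTaCTgttgtgttgactcGcaa
Hbbl1: tgcttctgaTaCTgttgtgttgactcGcaa
The 4 neighbouring genes shared these 30 bases with each other, and the Hbb probe differed from them at 4 positions in this stretch. Whether their transcripts also bind to the Hbb probe was not tested, so Hbb values are uncertain as to gene.

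Fth1 had 2 probes, which the array annotation places at different loci of chromosome 1 although both carry the same gene name. They overlap by 55 bases and differ at 3 of them, shown in capitals. The first lies at chr1:212431855-212431914 and the second at chr1:24186076-24186135, both on the plus strand of rn4.
Fth1 probe 1: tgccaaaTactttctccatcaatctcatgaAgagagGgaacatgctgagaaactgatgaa
Fth1 probe 2: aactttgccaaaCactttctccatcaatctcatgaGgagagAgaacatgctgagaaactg
With 3 differences in 55 bases, transcripts of both loci may bind to both probes, so Fth1 values are uncertain as to locus. The probe of Hmox1, the gene of the set with the largest change after injury, is given next for reference. It lies at chr19:13969336-13969395 (plus strand, rn4) and was printed in 10 spots.
Hmox1: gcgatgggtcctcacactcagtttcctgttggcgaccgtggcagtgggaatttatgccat

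Over all 28 arrays, 74.51% to 82.68% of the probes were well above background and no spot was saturated. The number of arrays, 4 a group, limits the precision. The study deposited a table of normalised values and the scanner output of each array, and these disagreed on which sample was measured for 16 of the 28 arrays. The values used here are those of the table, which need no reassignment. For the 16 arrays, the rank order of the table's column equalled that of another scanner output (Spearman correlation 1.0, next best at most 0.9926). The disagreement touches Hmox1 directly. In the table, Hmox1 of T0 replicate 2 was 10.26, close to the other T0 animals, whereas the scanner output deposited under that sample gave 16.00. Undisputed arrays numbered 12. T2_NPC held 4 of them, T0, T2 and T8 had 2 each, T1 and T4 had 1 each, and T1_NPC had none. Differences at 1 and 4 weeks on undisputed arrays therefore rest on 1 injured array and are given with no test. In the time course, the undisputed arrays were those of scan session 1 and the disputed ones those of session 2. Under the deposited names of the scanner outputs, no gene of the set was called in any comparison tested, and the values on undisputed arrays are given beside the results.

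**Figure D1:**
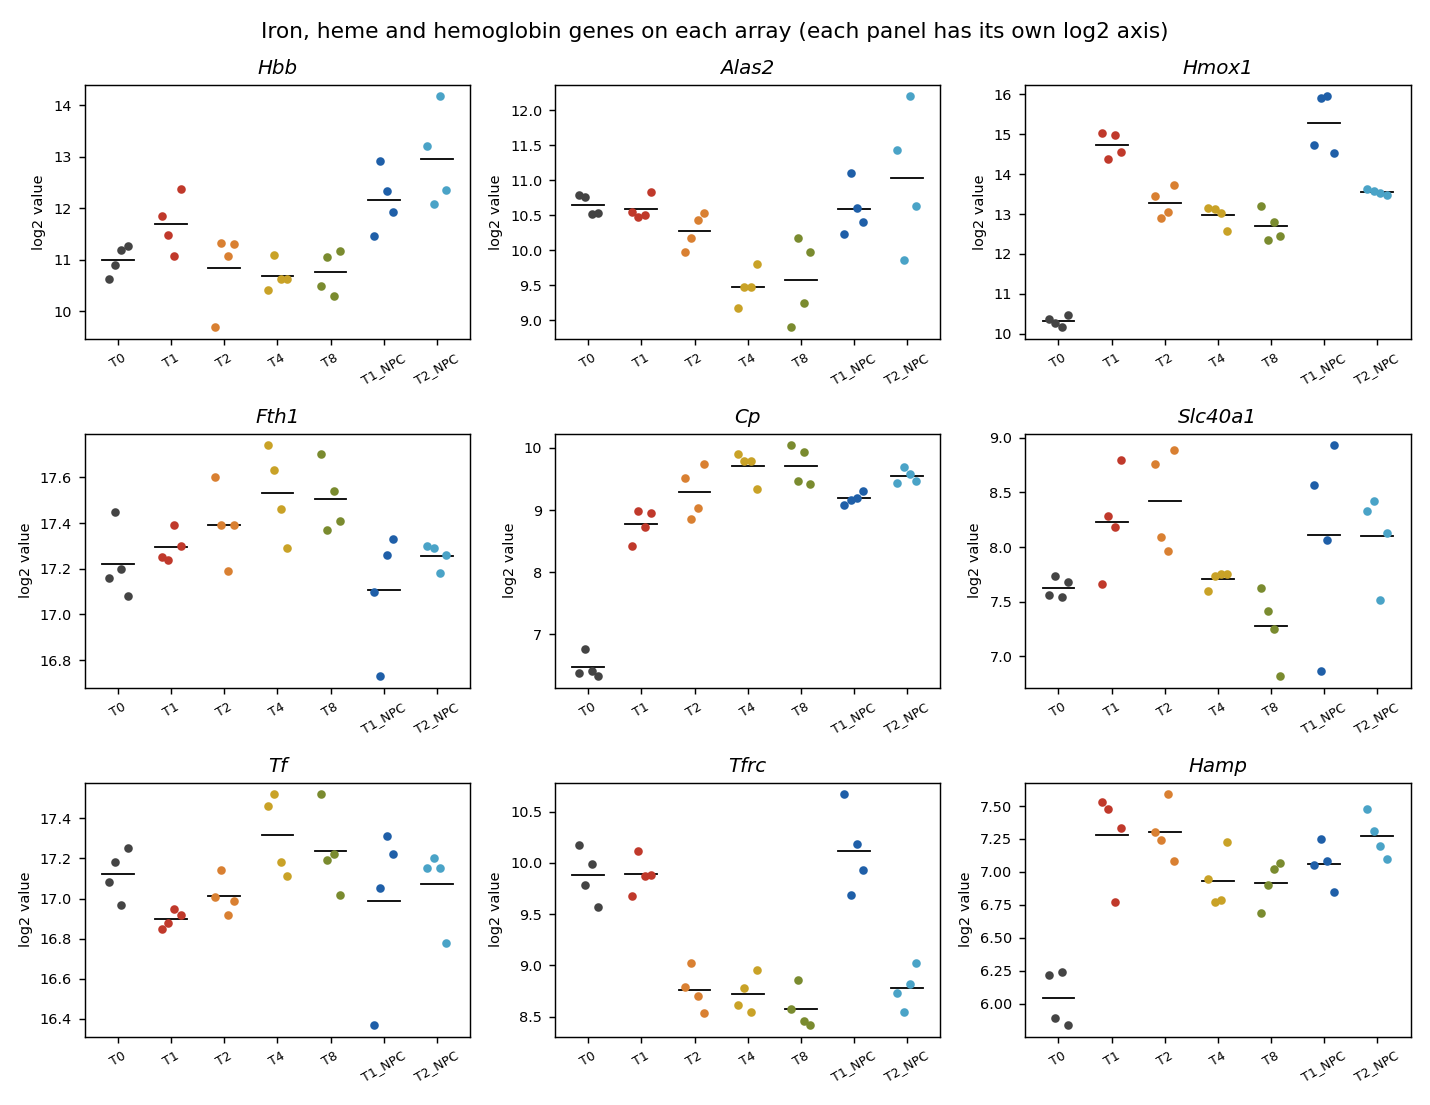
Normalised log2 value of each gene on each array, by group. Points are single animals (4 a group, replicates 1 to 4 from left to right), lines are group means, and each panel has its own axis. Hmox1, Cp and Hamp lay above all T0 arrays on every injured array, and Tfrc lay below them at 2, 4 and 8 weeks.

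Against T0, 3 of 9 genes were upregulated and 0 downregulated at 1 week (Hmox1, Cp and Hamp), where 19.1% of all features were called higher and 25.1% lower. At 2 weeks, 3 of 8 were higher and 1 lower (Tfrc), against 17.7% and 22.2% of all features. At 4 weeks, 3 of 9 were higher and 2 lower (Tfrc and Alas2), against 17.5% and 21%. At 8 weeks, the counts were again 3 and 2 of 9, against 18.2% and 21.5%. The same 3 genes, Hmox1, Cp and Hamp, made up the upregulated ones at each of the 4 times. The median log2 difference over the counted genes was 0.60, 0.48, 0.20 and 0.12 at 1, 2, 4 and 8 weeks. That of all features stayed between -0.10 and -0.04. The median at 2 weeks is of 8 genes, without Hbb, and the others are of 9, so no course is read from them. Nothing is read from these counts about the genes as a group, and the results below are those of single genes.

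**Figure D2:**
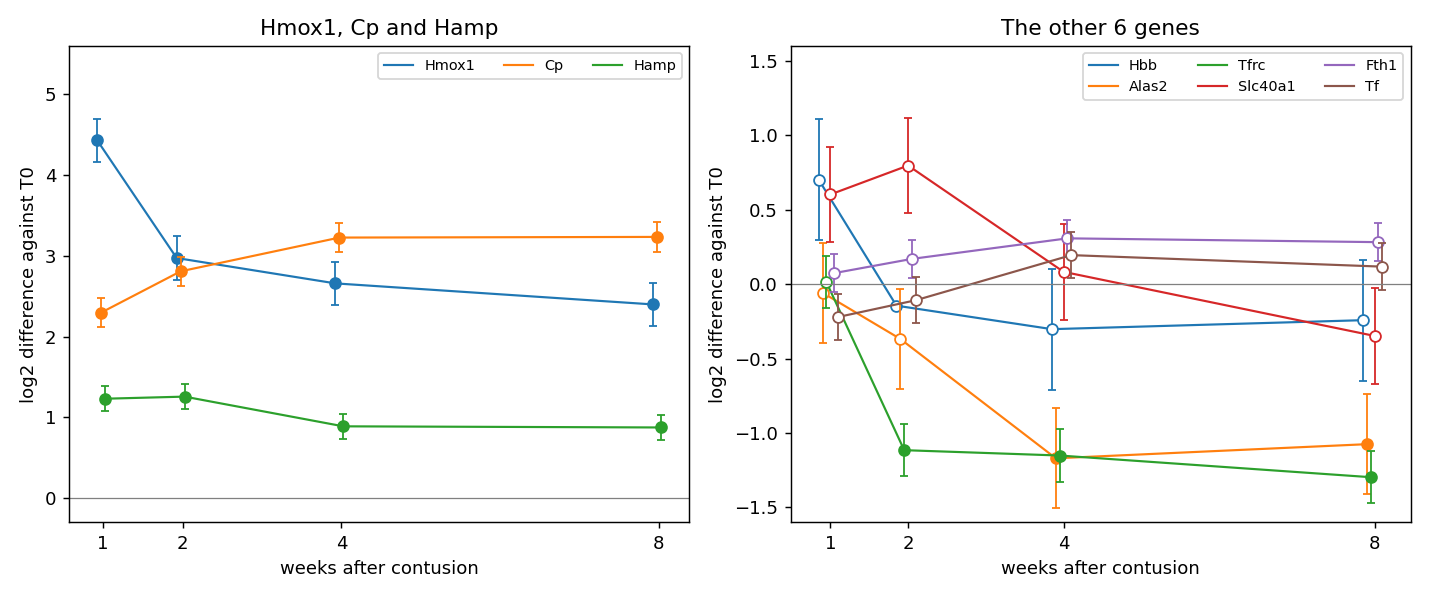
Log2 difference of each gene against T0 at 1, 2, 4 and 8 weeks after contusion. Error bars are limma's standard errors (4 arrays a group), filled points were called, open points were not, and Hbb at 2 weeks is shown without error because it was not tested. Hmox1 was highest at 1 week, Cp climbed to 4 weeks, and Tfrc fell between 1 and 2 weeks.

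Hmox1, which opens the heme ring, had the largest change of the set. Its values were 10.36, 10.26, 10.16 and 10.46 in T0 and 15.04, 14.37, 14.99 and 14.56 in T1. All T1 animals thus lay far above all T0 animals, by 21.5-fold on average (log2 difference 4.43, SE 0.27, adjusted p = 4.79e-12). The values were 13.46, 12.90, 13.04 and 13.72 in T2, 13.15, 13.12, 13.03 and 12.57 in T4, and 13.21, 12.36, 12.81 and 12.44 in T8. These groups also lay wholly above T0, by 7.85-fold, 6.31-fold and 5.27-fold (adjusted p = 6.27e-09, 4.81e-08 and 1.84e-07). From T1 to T2, Hmox1 decreased by 1.46 on the log2 scale (adjusted p = 0.0053), and the 2 groups did not overlap. Fitted on the compared groups alone, this fall had an adjusted p of 0.0565. From T1 to T8 it decreased by 2.03 (adjusted p = 1.43e-05). On undisputed arrays, Hmox1 differed from T0 by 4.78 at 1 week and 2.14 at 8 weeks (adjusted p at 8 weeks = 2.58e-05), and in session 2 by 4.28 and 2.65.

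Macrophage and microglia markers, like Hmox1, were higher than in T0 at each time. All 10 of 10 markers were called higher than T0 at all 4 times (Cd68, Aif1, Itgam, Ptprc, Csf1r, Cd14, C1qa, Tyrobp, Gpnmb and Msr1), against 17.5% to 19.1% of all features. The mean log2 value over this list ranged from 8.70 to 9.03 in T0, from 12.62 to 13.25 in T1 and from 12.09 to 12.38 in T8. Hmox1 was called lower in T2 and in T8 than in T1. Of the 10 markers, 0 were called lower in T2 than in T1 (median log2 difference -0.23). In T8 against T1, 2 were called lower (median -0.60). Among all features, 0.665% and 4.42% were called lower in these comparisons. The part of these cells in the changes of Hmox1, Cp or Hamp was not tested, and in bulk tissue more cells of a type and more RNA per cell cannot be told apart. Neuron markers were called lower in 7 of 7 at each time, against 21% to 25.1% of all features.

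The 5 gene symbols whose values followed Hmox1 most closely over the 28 arrays were Furin (Pearson r = 0.97), Ctsl1 (0.96), Bid (0.96), Pstpip1 (0.96) and Igsf6 (0.96). Ctsl1 is a lysosomal protease and Furin a protease of the secretory pathway. The arrays are of T0 animals and of injured animals with and without NPCs. Each transplanted group lay on a slide of its own, and the other groups shared slides, so these correlations are descriptions. Within the set, Hamp (r = 0.71) and Cp (r = 0.63) followed Hmox1 most closely.

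Cp, the ferroxidase that loads iron onto transferrin, rose at each time. Its values, the mean of 4 probes, were 6.38, 6.77, 6.42 and 6.33 in T0 and 8.42, 8.99, 8.72 and 8.96 in T1. In T8 they had reached 10.04, 9.46, 9.93 and 9.42. No injured animal overlapped with T0, and the difference widened from 4.92-fold at 1 week to 7.00-fold, 9.36-fold and 9.41-fold at 2, 4 and 8 weeks (adjusted p = 4.99e-10, 2.23e-11, 2.37e-12 and 2.38e-12). T8 was higher than T1 by 0.94 on the log2 scale (SE 0.18, adjusted p = 0.00112), opposite to the fall of Hmox1 over the same interval. The 3 probes on the Cp strand gave log2 differences of 2.41 to 2.54 at 1 week and 3.43 to 3.61 at 8 weeks. The remaining probe, placed on the opposite strand of chromosome 2, was well above background on 1 of 4 T0 arrays, so its differences of 1.79 and 2.32 depend on T0 values near background and are not set against those of the others. Undisputed arrays gave 2.02 at 1 week and 3.04 at 8 weeks for the mean of probes (adjusted p at 8 weeks = 1.49e-05), and session 2 gave 2.34 and 3.43.

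Slc40a1, the iron exporter, did not pass the test at any time. Its values were 7.56, 7.74, 7.54 and 7.68 in T0, 8.76, 8.09, 7.96 and 8.89 in T2, and 7.63, 7.42, 7.25 and 6.82 in T8. T2 lay wholly above T0, but its log2 difference of 0.80 had an adjusted p of 0.0514. The probes disagreed on this call, since the one near the 3′ end was called higher at 2 weeks (0.93, adjusted p = 0.0309) and the other was not (0.66, adjusted p = 0.126). T8 lay wholly below T1, by 0.95 on the log2 scale, with an adjusted p of 0.0627, and here it was the other probe that was called (-1.26, adjusted p = 0.0156) and the 3′ probe that was not (-0.64, adjusted p = 0.293). At 8 weeks its log2 difference from T0 was -0.35 (adjusted p = 0.431).

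Hamp, the hepcidin gene, is best known as a liver gene. Its cord values were 6.22, 5.89, 6.24 and 5.84 in T0 and 7.53, 7.48, 6.77 and 7.33 in T1. They were 7.30, 7.24, 7.59 and 7.08 in T2, 6.95, 6.77, 6.79 and 7.23 in T4, and 6.69, 6.90, 7.02 and 7.07 in T8. Every injured animal was above every T0 animal. The rise was 2.35-fold at 1 week and 2.39-fold at 2 weeks (adjusted p = 1.01e-06 and 9.62e-07), then 1.85-fold and 1.83-fold at 4 and 8 weeks (adjusted p = 8.74e-05 and 9.02e-05). The decline from T1 to T8, 0.36 on the log2 scale, did not pass the test (adjusted p = 0.189). On undisputed arrays, the log2 differences were 1.30 at 1 week and 0.76 at 8 weeks (adjusted p at 8 weeks = 0.00893), and in session 2 they were 1.33 and 0.99.

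Tfrc, the receptor that takes up transferrin-bound iron, was not called at 1 week and was lower afterwards. Its values were 10.17, 9.78, 9.99 and 9.57 in T0 and 9.68, 10.12, 9.87 and 9.88 in T1, and the groups overlapped (log2 difference 0.01, adjusted p = 0.971). The sessions differed in sign at 1 week, with -0.395 in session 1 (the undisputed arrays, 1 of them T1) and 0.283 in session 2. In T2 the values were 8.79, 9.02, 8.70 and 8.54, in T4 8.61, 8.78, 8.55 and 8.96, and in T8 8.58, 8.86, 8.46 and 8.42. All 12 of these animals were below all T0 and T1 animals. Tfrc was 2.17-fold, 2.22-fold and 2.46-fold lower than in T0 at 2, 4 and 8 weeks (adjusted p = 1.61e-05, 1.35e-05 and 2.36e-06). The step from T1 to T2 was -1.13 (SE 0.18, adjusted p = 0.00142). On undisputed arrays, of which T1 has 1, the step was -0.83, and T8 was below T0 by a log2 difference of -1.44 (adjusted p = 0.00154), as against -1.16 in session 2. The 3 Tfrc probes, 1 of them printed in 10 spots, fell alike, with log2 differences of -1.06 to -1.20 at 2 weeks and -1.10 to -1.42 at 8 weeks.

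In the table of normalised values, Tf and Fth1, the extracellular carrier and the storage protein, changed little. Tf was 17.08, 17.18, 16.97 and 17.25 in T0, 16.85, 16.88, 16.95 and 16.92 in T1, and 17.52, 17.19, 17.22 and 17.02 in T8. All T1 animals were below all T0 animals, but the log2 difference of -0.22 did not pass the test (adjusted p = 0.273), and T8 differed from T0 by 0.12 (adjusted p = 0.608). Tf is made in the cord by oligodendrocytes among other cells. Of 8 oligodendrocyte markers, 6, 6, 4 and 7 were called lower at 1, 2, 4 and 8 weeks. Among all features, 25.1%, 22.2%, 21% and 21.5% were called lower at these times. The part of these cells in the level of Tf was not tested. Fth1 was 17.16, 17.45, 17.20 and 17.08 in T0, and its log2 differences were 0.07, 0.17, 0.31 and 0.28 at 1, 2, 4 and 8 weeks (adjusted p = 0.685, 0.313, 0.0568 and 0.0799). Of its probes, the one on the first locus was called higher at 4 weeks (0.35, adjusted p = 0.0257), and the other was not (0.26, adjusted p = 0.135). In the scanner outputs, spots of Tf and Fth1 carried outlier flags on part of the arrays, and flagged spots were left out there. Quantile-scaled scanner intensities of Fth1 were 18.10 and 17.98 in T0 replicates 1 and 3 and 17.67 in T8 replicate 4, all undisputed. The table gave 17.16, 17.20 and 17.41, so the direction on these arrays differed between the sources. Where 1 of the 2 Fth1 probes was flagged, the scanner value is that of the other probe alone. In T0 the 2 probes averaged 17.47 and 16.98. The sources may thus rest on different probes, and the reason for the difference was not tested.

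The symbols that followed Tf most closely over the 28 arrays were Prdm8 (Pearson r = 0.75), Bbs2 (0.74), Eml2 (0.73), Gja10 (0.71) and Esrrb (0.71).

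The ferritin light chain is on the array under its older name Ftl, whose accession now carries the symbol Ftl1, so it is not counted among the 9. Its 5 probes averaged 16.56, 16.18, 16.53 and 16.30 in T0 and 18.15, 18.07, 17.89 and 17.97 in T1. Ftl was called higher than T0 at all 4 times, with log2 differences of 1.63, 1.70, 1.42 and 1.34 (adjusted p = 1.33e-09, 9.27e-10, 2.13e-08 and 4.7e-08). The ferritin chains thus differed in that the light chain was called higher at each time and the heavy chain at none, although the difference between the chains was not itself tested.

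Alas2, which starts heme synthesis in red cell precursors, was lower at late times. Its values were 10.79, 10.76, 10.52 and 10.53 in T0 and 10.55, 10.48, 10.50 and 10.84 in T1. In T4 they were 9.17, 9.47, 9.48 and 9.80, and in T8 they were 8.90, 10.18, 9.25 and 9.97. T4 and T8 lay wholly below T0, by 2.25-fold and 2.11-fold (adjusted p = 0.00744 and 0.0126). T8 animals were spread over more than 1 log2 unit, and without T8 replicate 1 the difference at 8 weeks was -0.85 with an adjusted p of 0.0614. On undisputed arrays the difference was -0.85 at 4 weeks, and at 8 weeks it was -0.58 and not called (adjusted p = 0.551), while session 2 gave -1.27 and -1.57.

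Hbb, the beta chain of hemoglobin, was not called at 1, 4 or 8 weeks. It was 10.63, 10.90, 11.19 and 11.26 in T0, 11.85, 11.49, 11.08 and 12.37 in T1, 10.42, 11.10, 10.62 and 10.62 in T4, and 10.50, 11.06, 10.29 and 11.17 in T8. The groups overlapped, and log2 differences from T0 were 0.70, -0.30 and -0.24 at 1, 4 and 8 weeks (adjusted p = 0.175, 0.61 and 0.695). Its difference at 8 weeks was 0.20 in scan session 1 and -0.68 in session 2. The difference between Hbb and Alas2 was not tested. Of the hemoglobin chain list, 4 of 8 genes were found on the array, and none was called at 1 week and 1, Hbb-b1, was called lower at 4 and 8 weeks. Among all features, 21% and 21.5% were called lower at 4 and 8 weeks.

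Of the other hemoglobin probes, looked up after the values of Hbb had been seen, 2 were called lower at 4 and 8 weeks. LOC287167, an alpha globin gene now named Hba-a3, averaged 16.86 in T0, 15.67 in T4 and 15.70 in T8 (log2 differences -1.18 and -1.16, adjusted p = 0.000471 and 0.000534). MGC72973, now named Hbb-b1, averaged 16.34 in T0, 15.45 in T4 and 15.33 in T8 (log2 differences -0.88 and -1.01, adjusted p = 0.000553 and 0.000124). Hbg1 (-0.23 and -0.01, adjusted p = 0.392 and 0.987) and Hbe2 (-0.36 and -0.29, adjusted p = 0.163 and 0.267) were not called, nor were 3 further features at or near background. Of these, 1 is annotated as a beta-globin major gene and was above background on 2 of 4 T2 arrays and 0 arrays of every other group. It was called higher than T0 at 2 weeks (2.12, adjusted p = 0.0173) and differed by -2.15 in T2_NPC against T2. Both differences depend on values near background. The MGC72973 probe covers another part of its transcript and not the 30 bases shown above. Animals had been perfused with saline, and how much blood remained in each cord was not measured. Of the 13 red blood cell markers found on the array, 1 was called higher and 3 lower at 1 week, against 19.1% and 25.1% of all features. At 8 weeks, 2 were higher and 3 lower, against 18.2% and 21.5%, so nothing is read from these counts. Gypc, a membrane protein that is not exclusive to red cells, was among those higher at 8 weeks (log2 difference 1.37, adjusted p = 5.08e-06), and those lower were Ank1, Klf1 and Xk. The log2 differences of this list ranged from -1.86 to 2.02 at 8 weeks, so Gypc was not the marker with the largest rise.

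After subacute transplantation, Hbb was the 1 gene of the 9 whose T2_NPC animals all lay above the T2 animals, and none lay wholly below. Among all features, 9.97% did not overlap in the higher direction and 9.4% in the lower, so nothing is read from this count, for which Hbb was chosen. Hbb was 9.69, 11.32, 11.08 and 11.31 in T2 and 13.21, 12.09, 14.17 and 12.35 in T2_NPC. The T2_NPC values were all higher, and the means differed by 2.11 on the log2 scale, or 4.30-fold. T2 replicate 1 was far below its group. Without it the log2 difference was 1.72, without T2_NPC replicate 3 it was 1.70, and on undisputed arrays, which leave out T2 replicates 1 and 4, it was 1.76.

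**Figure D3:**
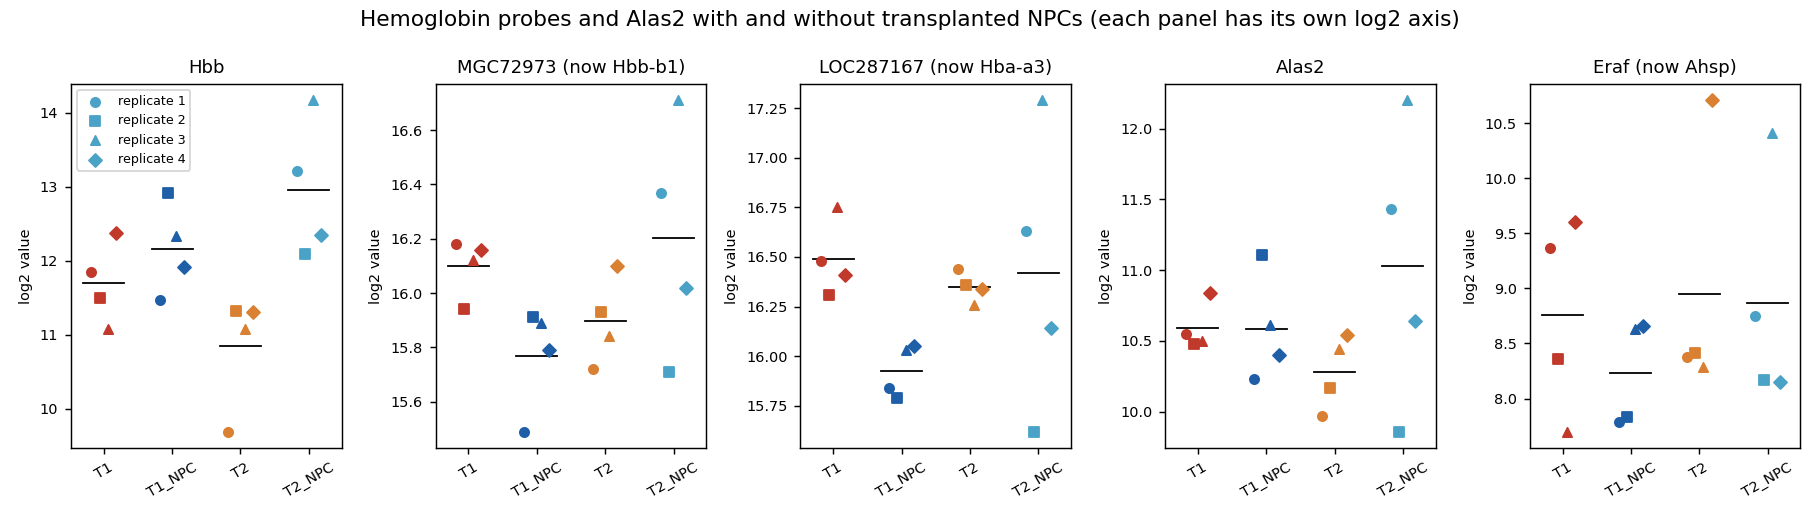
Normalised log2 values of 3 hemoglobin probes, of Alas2 and of Eraf (now Ahsp, the chaperone of alpha globin) on each array of T1, T1_NPC, T2 and T2_NPC. Marker shapes are replicate numbers, which do not pair animals across groups, lines are group means, and each panel has its own axis. T2_NPC replicate 3 was the highest array of the group in all 5 panels, while Hbb alone had all T2_NPC animals above T2.

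The T2_NPC animals differed among themselves in the same order for several, though not all, hemoglobin-related probes. Alas2 was 11.43, 9.86, 12.20 and 10.64 in T2_NPC, so replicate 3 was highest, followed by replicates 1, 4 and 2, as for Hbb. Its mean was 0.75 above T2, where values were 9.97, 10.17, 10.44 and 10.54, and the groups overlapped. LOC287167 had the same order in T2_NPC, at 16.63, 15.62, 17.29 and 16.14, and so did MGC72973, at 16.37, 15.71, 16.71 and 16.02. The log2 differences from T2 were 0.07 for LOC287167, 0.31 for MGC72973 and -0.08 for Eraf, all with overlap. For the gamma and epsilon chains they were 0.26 (Hbg1) and 0.20 (Hbe2). In Eraf and Hbe2, replicates 3 and 1 of T2_NPC were again highest, but replicate 4 was lowest. Hbg1 had another order, at 5.91, 5.35, 5.44 and 5.57.

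The level of Hbb was also set against that of the alpha globin probe on the same array. The log2 value of Hbb minus that of LOC287167 was -3.42, -3.53, -3.12 and -3.78 in T2_NPC and -6.75, -5.04, -5.17 and -5.03 in T2. Its SD was 0.28 in T2_NPC, where that of Hbb itself was 0.94, and 0.66 in T1_NPC, where that of Hbb was 0.62. In T1_NPC this difference ranged from -4.37 to -2.87, in T1 from -5.66 to -4.05 and in T0 from -6.43 to -5.46. In T4 it ranged from -5.18 to -4.66 and in T8 from -5.35 to -4.59, wholly above T0 without a transplant. This difference uses the values by which Hbb was chosen and was computed after they were known, so it is given with no test. Of the 13 red blood cell markers, 0 lay wholly above T2 in T2_NPC and 1 (Xk) wholly below, against 9.97% and 9.4% of all features. Their median log2 difference was -0.08. All T2_NPC arrays came from 1 slide and 1 scan session that held no T2 array, so the transplant and the slide cannot be told apart.

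Besides Hbb and Alas2, the genes of the set differed from T2 by at most 0.32 on the log2 scale in either direction, with overlap throughout. Hmox1 was 13.63, 13.57, 13.53 and 13.49 (log2 difference 0.28, with overlap), Tfrc differed by 0.02, Cp by 0.25, Slc40a1 by -0.32, Hamp by -0.03, Fth1 by -0.14 and Tf by 0.06. The median over the 8 genes other than Hbb was 0.04, against -0.03 for all features.

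After acute transplantation, 0 of 9 genes were called in T1_NPC against T1, where limma called 11.9% of all features in either direction. At an unadjusted p under 0.05, 1 of the 9 passed (26.8% of all features), and 2 did with trend and robust options of eBayes. Hmox1 was 14.74, 15.92, 15.95 and 14.53 in T1_NPC, so that 2 animals lay above all T1 animals and 2 did not (log2 difference 0.55, SE 0.27, adjusted p = 0.194). Without T1_NPC replicate 4 the difference was 0.80 and passed the test (adjusted p = 0.0482). Hbb was 11.47, 12.92, 12.34 and 11.92, with overlap with T1 (log2 difference 0.46, SE 0.41, adjusted p = 0.5). Cp was 9.08, 9.16, 9.20 and 9.31, wholly above T1 by 0.41, with an adjusted p of 0.142. Of its 4 probes, 1 was called higher (0.82, adjusted p = 0.0144), and another on the same strand differed by 0.05 (adjusted p = 0.937).

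The remaining 6 genes differed from T1 by -0.22 (Hamp) to 0.23 (Tfrc). All T1_NPC arrays also lay on 1 slide of their own, and none was undisputed. Between the transplanted groups and their controls, the effects of T1_NPC and T2_NPC on Hbb were not tested against each other.

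Between later time points of the injury course, 2 of 8 genes were lower in T2 than in T1, namely Hmox1 and Tfrc, and 0 were higher (0.665% and 0.815% of all features). In T4 against T2, 0 of 8 were called (0.0761% of all features in either direction) and 4 passed at an unadjusted p under 0.05 (9.02% of all features). In T8 against T4, 0 of 9 were called (0.0902% of all features) and 0 passed unadjusted (4.84% of all features). With the trend and robust options, limma called 0 in both. Over the whole interval, T8 against T1, 2 of 9 were lower and 1 higher, where 4.42% and 5.45% of all features were called lower and higher. The median log2 difference of the 9 genes was -0.94 there, against 0.00 for all features, and 8 of the 9 passed at an unadjusted p under 0.05 (20.9% of all features). This median is the value of Hbb itself, and single genes ranged from -2.03 (Hmox1) to 0.94 (Cp). Nothing is read from these values about the genes as a group.

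**Figure D4:**
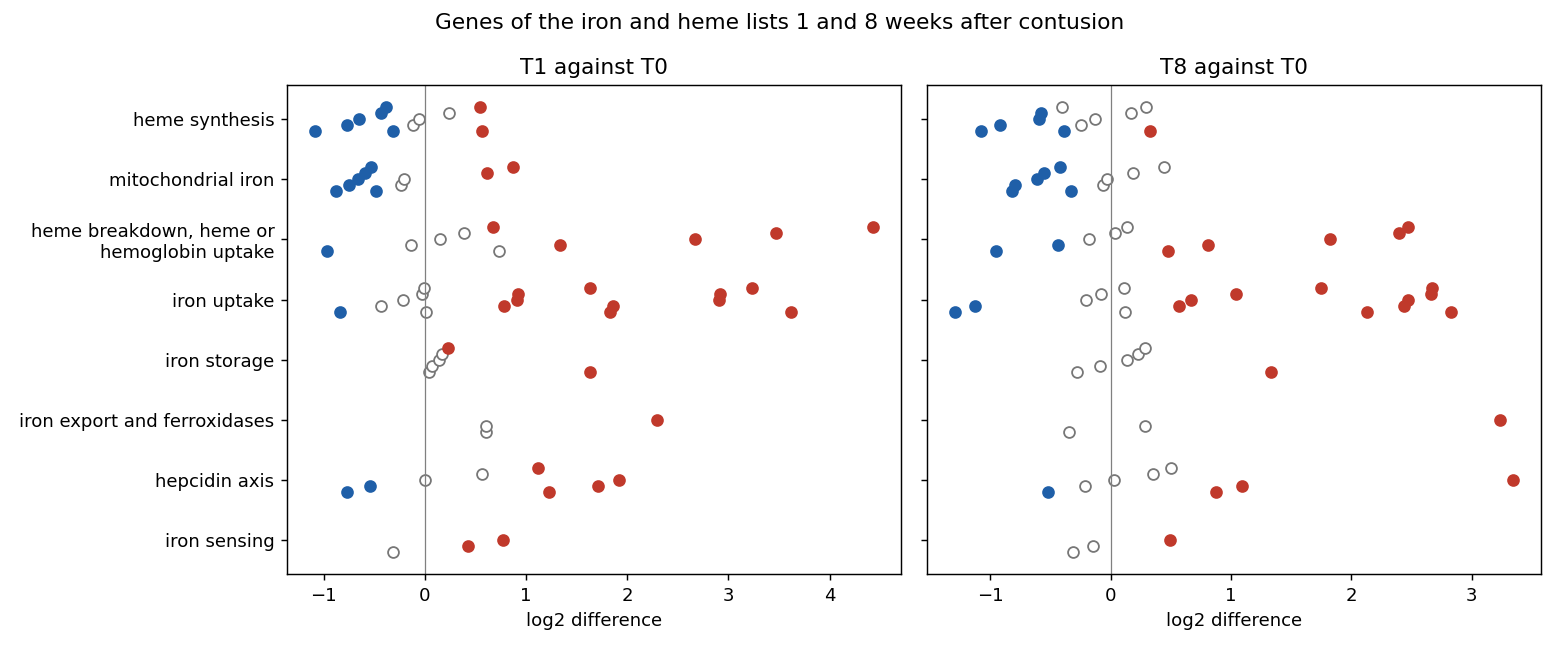
Log2 difference against T0 at 1 week (left) and 8 weeks (right) of each gene of 8 lists of iron and heme metabolism. Each point is 1 gene, red points were called higher, blue points lower, and open points were not called. Uptake and heme breakdown genes lay mostly to the right, heme synthesis and mitochondrial iron genes mostly to the left.

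Lists of iron and heme genes were counted beside the shares of all features called, which were 19.1% higher and 25.1% lower at 1 week and 18.2% higher and 21.5% lower at 8 weeks. No list was tested as a whole. Of 16 iron uptake genes, Tf and Tfrc among them, 10 were called higher and 1 lower at 1 week, and 10 and 2 at 8 weeks. Lcn2, a carrier of iron-binding siderophores, rose by 3.62 at 1 week (adjusted p = 2.86e-06). Steap1, of a family of metalloreductases, rose by 3.23 (adjusted p = 3.95e-08), the ferritin receptor Scara5 by 2.92 (adjusted p = 2.12e-06), and Slc11a1, a metal transporter of macrophage phagosomes, by 2.91 (adjusted p = 4.82e-09). Those lower at 8 weeks were Tfrc and Steap2 (log2 difference -1.13, adjusted p = 0.00139). The median of this list was 0.91 at 1 week and 0.85 at 8 weeks.

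Of 10 genes of heme breakdown and of heme or hemoglobin uptake, 5 were called higher and 1 lower at 1 week. Next to Hmox1, Cd163, the macrophage receptor for hemoglobin bound to haptoglobin, was higher by 3.47 (adjusted p = 0.000157). Haptoglobin itself (Hp) was higher by 2.67 (adjusted p = 2.72e-08) and differed by 0.04 at 8 weeks (adjusted p = 0.943). Hemopexin (Hpx), the plasma protein that binds free heme, was higher by 1.34 at 1 week and by 1.82 at 8 weeks (adjusted p = 0.00196 and 9.51e-05). The constitutive heme oxygenase Hmox2 was lower, by -0.97 at 1 week and -0.95 at 8 weeks (adjusted p = 1e-07 and 1.68e-07).

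Of 11 heme synthesis genes, 2 were higher and 6 lower at 1 week, and 1 higher and 5 lower at 8 weeks. Cpox had the largest fall at 1 week, with a log2 difference of -1.09 (adjusted p = 6.19e-06), followed by Slc25a38 (-0.77, adjusted p = 0.00748) and Alad (-0.66, adjusted p = 2.13e-05). Cpox and Alad were lower still in T1_NPC than in T1, by -0.72 and -0.42 (adjusted p = 0.00504 and 0.012).

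Of 10 mitochondrial iron genes, 2 were higher and 6 lower at 1 week, and 0 and 6 at 8 weeks. Glrx5, of the iron-sulfur cluster machinery, differed by -0.88 at 1 week (adjusted p = 2.55e-05).

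Of 8 genes of the hepcidin axis, 4 were higher and 2 lower at 1 week, and 3 and 1 at 8 weeks. Bmp6, the ligand that raises hepcidin in the liver when iron is high, was higher by 1.92 at 1 week and by 3.34 at 8 weeks (adjusted p = 0.000423 and 5.71e-07). Il6, the cytokine that raises hepcidin in inflammation, was higher by 1.71 at 1 week (adjusted p = 0.000639) and differed by 0.50 at 8 weeks (adjusted p = 0.326). Of 3 iron sensing genes, Aco1 and Ireb2, which encode the iron regulatory proteins, were higher at 1 week by 0.77 and 0.43 (adjusted p = 0.00111 and 0.00379).

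Of 6 iron storage genes, 2 were higher at 1 week, Ftl and Pcbp2 (0.22, adjusted p = 0.0494), and 1 at 8 weeks. Of 3 genes of iron export, Cp was higher at both times, and Heph, a ferroxidase related to Cp, was higher at 2 weeks (0.94, adjusted p = 0.00539). Of 7 further targets of NRF2, a transcription factor that also drives Hmox1, 0 were higher and 1 lower at 1 week. At 8 weeks, 2 were higher, Slc7a11 (1.47, adjusted p = 0.00296) and Nqo1 (1.01, adjusted p = 0.000241), and 2 lower.

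The gene symbols that followed Hbb most closely over the 28 arrays were Prkcsh (Pearson r = 0.83), Alox15 (0.82), Nop16 (0.80), Polr1e (0.79) and Cct3 (0.79). Within the set, Alas2 was closest to Hbb (r = 0.78). The Hbb values of T2 and T2_NPC, by which Hbb was chosen, enter these correlations. The arrays share slides and groups, and these values describe the 28 arrays only.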

How the data were processed

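RNA of 28 rat spinal cord samples was measured on single-colour Agilent arrays. Deposited by the authors were scanner outputs (Agilent Feature Extraction 10.7.1.1), with a processed intensity for every spot, and a table of log2 values after quantile normalization between arrays. The log2 table was the main source, since the scanner outputs disagreed with it on the sample of 16 arrays. For alternatives, each scanner intensity was given the sample with the same rank order. Control spots were left out, and the 43379 other spots were averaged, first to 41012 probes and then, where probes shared an array gene name, to 35469 features, with no filter on dim probes. Gene names were updated through RefSeq accessions (20503 probes had one, 16815 were found in the reference table of build GRCr8). Coordinates are those of the array annotation (rn4).

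All 28 arrays entered 1 limma model (version 3.58.1, R 4.3.3) that estimates the 7 group means, with empirical Bayes moderation (2.26 prior degrees of freedom), and tested on simulated data. The threshold was an adjusted p (Benjamini-Hochberg) of 0.05. Every column of the table had a sample (0 were left without one). The members and lists were chosen with earlier results of these data known. Named were all members, of each list up to 4 called genes with the largest change at 1 or 8 weeks, red cell and hemoglobin genes where a result turned on them, and the 5 symbols most correlated with Hbb, Hmox1 and Tf. Single probes, the other hemoglobin probes, Hmox2, Steap2 and Heph were added after the values were seen. Some items the naming rule covers are not reported here. Lists covered heme synthesis, heme breakdown, iron uptake, storage, export and sensing, mitochondrial iron, the hepcidin axis, NRF2 targets, hemoglobin chains and markers of red cells, macrophages, oligodendrocytes, astrocytes, neurons and endothelium. Alternatives were other scalings of the intensities, normexp (offset 50, on median signals because 20 scanner outputs hold no mean signal), deposited sample names, undisputed arrays, the brightest probe, a filter on dim probes, eBayes options, compared groups only, slide, scan session and replicate number as terms, and each array left out.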

Additional observations from a re-analysis of the deposited data

Results flagged for a closer look

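Of 63 sets of 4 animals (9 genes in 7 groups), 3 held an animal whose gap to the nearest other, as a share of the range of its group, passed Dixon's criterion. Chance passes about 1 set in 20. They were Hbb in T2 replicate 1 (9.69, others 11.08 to 11.32), Tf in T2_NPC replicate 4 (16.78, others 17.15 to 17.20) and Slc40a1 in T4 replicate 1 (7.60, others 7.74 to 7.75).

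The effect of injury differed between time points for 3 genes, by limma's test of one time point against another. Hmox1 was lower in T2 than in T1 by -1.46 and lower in T8 than in T1 by -2.03. Tfrc was lower in T2 than in T1 by -1.13 and lower in T8 than in T1 by -1.31. Cp was higher in T8 than in T1 by 0.94.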

How the results depend on the processing

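Of 602 recomputed values of single genes, 561 kept their direction and their side of the threshold, 27 lost their call, 1 gained one and 13 changed sign. Of the 27 losses, 21 came from taking the scanner outputs under their deposited samples: counts of called genes were then 0 in T1, T2, T4 and T8 against T0, in T2 against T1 and in T8 against T1, and Hmox1 in T8 against T1 was 0.21 (main -2.03). Of the sign changes, 12 were of genes not called in T1_NPC against T1 in either setting. Under deposited samples, Fth1 was 0.44, Hbb -0.76, Slc40a1 0.30 and Tfrc -0.67. Tf was -0.30 with normexp and -0.10 with quantile scaling of the intensities. With 1 array left out, Alas2 ranged from -0.18 to 0.11, Slc40a1 from -0.40 to 0.29 and Tf from -0.018 to 0.295. The scan session as a term gave 5 in T1 against T0 (main 3), 1 in T4 against T2 (main 0) and 8 in T8 against T1 (main 3). T2 against T1 gave 1 with the compared groups only and 1 on undisputed arrays (main 2), of which T1 has 1, assumed there to vary like the other groups. T8 against T1 gave 5 without dim probes. The causes were not tested beyond these constructions. No value of T1_NPC against T1 could be had on undisputed arrays or with the scan session, since no undisputed array is in T1_NPC and its session holds no T1 array. Leaving out 1 array gave 3 to 3 calls in T1, 4 to 5 in T2, 5 to 6 in T4 and 4 to 6 in T8 against T0, 2 to 2 in T2 against T1, 3 to 4 in T8 against T1, 0 to 1 in T1_NPC against T1, and 1.70 to 2.39 for Hbb in T2_NPC against T2. Scaling to the 75th percentile moved the median of all features in T1 against T0 to -0.26 (main -0.10). With the replicate number as a block, counts were 3, 4, 5 and 5 against T0, 2 in T2 against T1, 3 in T8 against T1 and 0 in T1_NPC against T1, as without it. Same-numbered arrays were not paired: in 13 of 40 pairs the correlation of their deviations was over 0.1 (-0.34 to 0.30). The number of arrays, 4 a group, limits what could be detected.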

Other observations

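Endothelial markers, not described above, were called higher in 3 of 7 and lower in 1 of 7 at 1 week, and astrocyte markers in 1 of 7 and 3 of 7. Among all features, 19.1% were called higher and 25.1% lower at 1 week. Neither list held a gene of the set.

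Of the hemoglobin chains other than Hbb, Hbg1 was higher in T1_NPC than in T1 by 0.84 (limma adjusted p = 0.00673), from between 4.84 and 5.36 in T1 to between 5.94 and 6.05 in T1_NPC. Hbe2 was lower by -0.61 (adjusted p = 0.047). LOC287167 and MGC72973 differed there by -0.56 and -0.34 (adjusted p = 0.145 and 0.258). These probes were looked up after the values of Hbb had been seen.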
